A study of Mus musculus with 6 samples.

Results

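The 10 genes described here encode the receptors and G protein regulators that place germinal center (GC) B cells within the lymphoid follicle, and they were chosen by name from the 19680 genes of the deposited table. They are the chemokine receptor genes Cxcr4, Cxcr5, Ccr6 and Ccr7, the sphingosine-1-phosphate receptor genes S1pr1, S1pr2 and S1pr4, the oxysterol receptor gene Gpr183, the G protein subunit gene Gna13 and the G protein regulator gene Rgs13. All 10 are protein-coding, each had a single row, and all 10 passed the filter of a mean of at least 1 normalized count that left 14678 genes for testing.

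RNA was sequenced from GC B cells, sorted as B220+, CD38- and FAS+ cells from the spleens of C57BL/6 mice on day 14 after an intraperitoneal injection of 100 µg of NP-CGG, a hapten coupled to a carrier protein. The mice were 6 to 8 weeks old. The 3 cKO libraries came from mice with loxP sites around both copies of Senp1, a SUMO protease gene, and the Cγ1-Cre transgene, in which Cre follows the activity of the γ1 constant region of the antibody locus in responding B cells. The 3 WT libraries came from mice with the same floxed alleles and no listed Cre, so an effect of Cre itself and of the deletion cannot be told apart. The comparison asks which transcripts differ when Senp1 is deleted, while no label states that the 3 libraries of a genotype are different mice. All p-values therefore weigh only the scatter among these libraries, and that scatter may be technical.

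Within a germinal center, B cells move between a dark zone, where they divide, and a light zone, where they compete for antigen and T cell help. CXCR4 draws cells to the dark zone and CXCR5 to the light zone and the follicle, while S1PR2 signals through Gα13, the product of Gna13, to hold cells at the center of the follicle. CCR7, GPR183 and S1PR1 direct B cells to the T cell zone, to the outer follicle and into the circulation, and GC B cells normally carry little of them. RGS13 speeds the shut-off of Gα subunits and so shortens chemokine receptor signals.

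The libraries differed in depth and in makeup. The cKO libraries held 9657005, 3019152 and 3082897 reads on genes and the WT libraries 10339054, 5160902 and 6528052, in the order of replicate number used for all values below. One sequenced read stands for 0.542 to 2.04 normalized counts in a cKO library and for 0.506 to 1.06 in a WT library. Senp1 was at 373, 425 and 398 normalized counts in cKO and 915, 868 and 891 in WT, and the cKO and WT libraries did not overlap, as the labels have it. On the first principal component of the tested genes (33.2% of the variance), replicate 1 stood at one end in both groups, at -49.1 in cKO and -54.4 in WT, and the other libraries ran from -10.1 to 56.2. The B cell genes Cd79a and Ms4a1, picked after their values were seen, were abundant in every library, at 5149 to 6774 and 7100.03 to 8795 normalized counts in cKO and 5134 to 5252 and 7024 to 10741 in WT. Mitochondrial transcripts made up 3.66%, 12.3% and 19.1% of the reads in cKO and 2.71%, 7.92% and 9.83% in WT, higher in cKO at each replicate number and lowest in replicate 1 of both groups. Their part in the differences below was not tested. The 6 germinal center markers (Bcl6, Fas, Mybl1, Gcsam, Mef2b and Mki67) summed to 9606 to 16812 in cKO and 14116 to 19331 in WT, with Mef2b at 0 in WT replicates 2 and 3. Mki67 alone, at 5726 to 10548 in cKO and 8093 to 12683 in WT, made up most of the sum in every library. Cd38, whose protein the sort excluded, was at 22.8 to 158 in cKO and 36.9 to 106 in WT.

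The promoters of 5 of the genes, chosen by their differences or role, are shown first. Gna13, Rgs13 and S1pr2 had the largest negative differences of the 10, Gpr183 had the largest positive difference, and Cxcr4 is the dark zone receptor. No difference between the genotypes was tested against these sequences. Of the 10 genes, 7 had an entry in the promoter table of RefSeq on GRCm38.p6, the assembly that mm10 names. Promoters of Cxcr5, Ccr7 and S1pr1 are not analysed here. Each stretch runs 5′ to 3′ on the strand of the gene, from 250 bases before the annotated start to 50 bases after it. Capitals mark matches, on either strand, to 4 motifs. The FOXO core was searched as TGTTTAC. The KLF box was searched as CACCC. The E-box bound by E proteins was searched as CAGCTG. The TATA box was searched as TATAAA.
Gna13: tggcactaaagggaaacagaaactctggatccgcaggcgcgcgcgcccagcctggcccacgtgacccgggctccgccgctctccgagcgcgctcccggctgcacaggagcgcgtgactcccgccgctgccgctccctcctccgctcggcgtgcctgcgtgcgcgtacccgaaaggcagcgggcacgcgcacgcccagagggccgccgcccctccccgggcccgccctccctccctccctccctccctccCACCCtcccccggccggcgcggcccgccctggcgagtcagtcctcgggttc
Rgs13: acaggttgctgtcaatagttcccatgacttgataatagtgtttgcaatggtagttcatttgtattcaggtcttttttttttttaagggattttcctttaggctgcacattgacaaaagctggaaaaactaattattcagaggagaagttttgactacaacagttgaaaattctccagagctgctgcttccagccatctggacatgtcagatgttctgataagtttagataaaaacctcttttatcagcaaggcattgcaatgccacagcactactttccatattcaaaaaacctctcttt
S1pr2: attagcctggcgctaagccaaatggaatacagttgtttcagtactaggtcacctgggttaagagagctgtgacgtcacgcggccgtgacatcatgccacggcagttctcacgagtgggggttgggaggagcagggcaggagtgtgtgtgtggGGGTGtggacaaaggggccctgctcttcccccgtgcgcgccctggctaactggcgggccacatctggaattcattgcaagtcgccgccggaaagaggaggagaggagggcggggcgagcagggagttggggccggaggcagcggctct
Cxcr4: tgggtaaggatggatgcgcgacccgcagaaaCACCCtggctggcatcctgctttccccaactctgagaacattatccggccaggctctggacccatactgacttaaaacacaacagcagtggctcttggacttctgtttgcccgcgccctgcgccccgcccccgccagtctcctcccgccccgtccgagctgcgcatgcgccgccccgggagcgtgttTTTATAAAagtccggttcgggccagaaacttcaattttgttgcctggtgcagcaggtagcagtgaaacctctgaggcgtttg
Gpr183: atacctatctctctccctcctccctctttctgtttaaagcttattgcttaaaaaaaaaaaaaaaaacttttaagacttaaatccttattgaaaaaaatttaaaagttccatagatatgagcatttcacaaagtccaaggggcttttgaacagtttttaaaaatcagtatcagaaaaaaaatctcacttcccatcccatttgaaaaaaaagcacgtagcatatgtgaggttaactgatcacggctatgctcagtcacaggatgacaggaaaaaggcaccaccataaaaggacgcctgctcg

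These promoters lie at chr11:109362544-109362843 (plus strand) for Gna13, chr1:144177323-144177622 (minus) for Rgs13, chr9:20976744-20977043 (minus) for S1pr2, chr1:128592250-128592549 (minus) for Cxcr4 and chr14:121965144-121965443 (minus) for Gpr183. CACCC occurred 1 time each in the windows of Gna13, S1pr2 and Cxcr4, and 57.5% of all 32851 promoters of this length hold it. TATAAA occurred 2 times in the Cxcr4 window, as overlapping matches on opposite strands, and 13.6% of all promoters hold it. The FOXO core and the E-box, held by 3.65% and 16.3% of all promoters, were not in these 5 windows, and the windows of Rgs13 and Gpr183 held none of the 4 motifs. A match is a run of letters and was not tested as a binding site.

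Per kilobase of exon, which allows levels of different genes to be compared, the set fell into abundant and scarce genes. Rgs13 had the highest level in both groups, at 658 ± 68.3 normalized counts per kilobase in cKO and 979.95 ± 316 in WT (mean ± SD, n = 3 libraries each, as in all such pairs below). Cxcr4 followed at 532 ± 87.4 in cKO and 549 ± 91.0 in WT. Cxcr5, Gna13 and S1pr2 came next, at 335 ± 75.6, 277 ± 28.4 and 220.2 ± 70.3 per kilobase in cKO and 333 ± 91.0, 343 ± 19.8 and 264 ± 43.8 in WT. S1pr1, Ccr7, Gpr183, Ccr6 and S1pr4 were scarce, with group means of 47.0 to 102 per kilobase in cKO and 37.7 to 52.5 in WT. In WT the ranges of neighbours did not overlap between Rgs13 and Cxcr4, between Cxcr4 and Gna13, and between S1pr2 and S1pr1. In cKO the only neighbours whose ranges did not overlap were Cxcr4 and Cxcr5. The lengths are all annotated exons of a gene joined, so a gene whose cells use a short transcript is set too low on this scale.

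**Figure D1:**
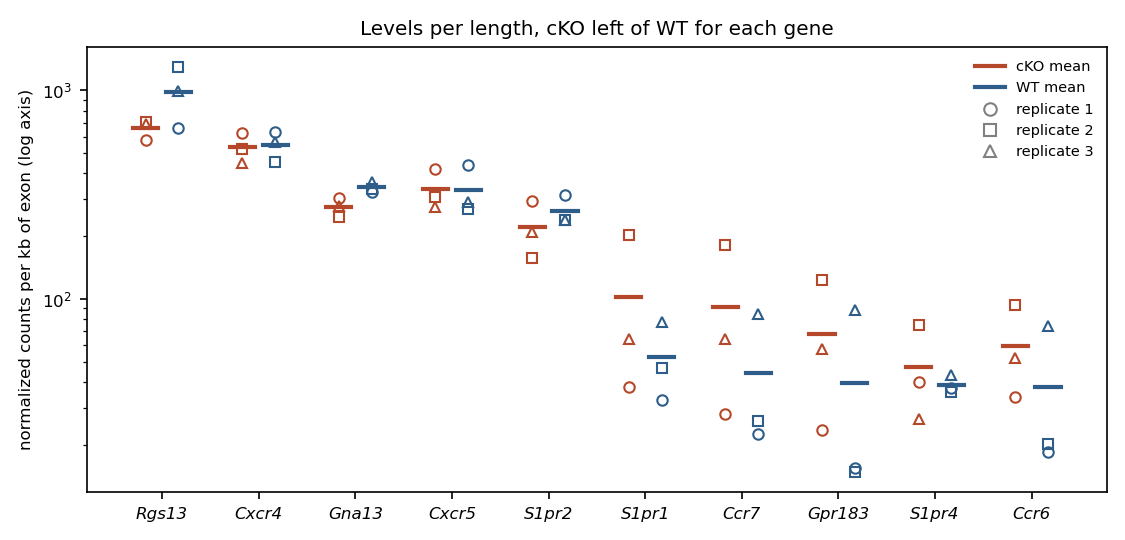
Normalized counts per kilobase of exon (log axis) for the 10 genes, ordered by WT mean, with cKO left of WT for each gene; open symbols are libraries and bars are group means (n = 3). Rgs13, Cxcr4, Gna13, Cxcr5 and S1pr2 stand above the other 5 genes in WT, and cKO replicate 2 (squares) has the highest value of each of those 5.

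None of the 10 genes passed the test between the genotypes, and the smallest adjusted p was 0.915 (limma, Benjamini-Hochberg over 14678 genes). Of all genes tested, 0% were called. Senp1, the deleted gene, ranked 1 by p but was not called either (log2 difference -1.16, limma adjusted p = 0.111). The authors' deposited adjusted p for Senp1 is 2.38e-09 (Wald test). The lack of a call for the 10 genes thus does not show that their levels are unchanged. At an unadjusted p under 0.05 there were 2 of the 10, Gna13 and Rgs13, both lower in cKO. Of all genes tested, 2.17% were lower in cKO at that p, 2.98% were higher and 5.15% met it in either direction. Of the 10 log2 differences 4 were negative and 6 positive (50.2% of all genes were negative and 49.8% positive), with a median of 0.085 against -0.0019 for all genes. Gna13 was the 1 gene of the 10 whose groups did not overlap. In 5.28% of all genes every cKO library was below every WT library, in 6.28% every one was above, and 11.6% had no overlap in either direction. The same 2 genes had an unadjusted p under 0.05 by edgeR and by DESeq2 on reads recovered from the normalized counts, where 2.23% and 1.07% of genes were lower in cKO at that p. DESeq2 called 0.102% of its genes after adjustment and edgeR 0%, and none of the 10 was among them. In bulk RNA, fewer cells of a type and less RNA per cell cannot be told apart, and this holds for every difference below.

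**Figure D2:**
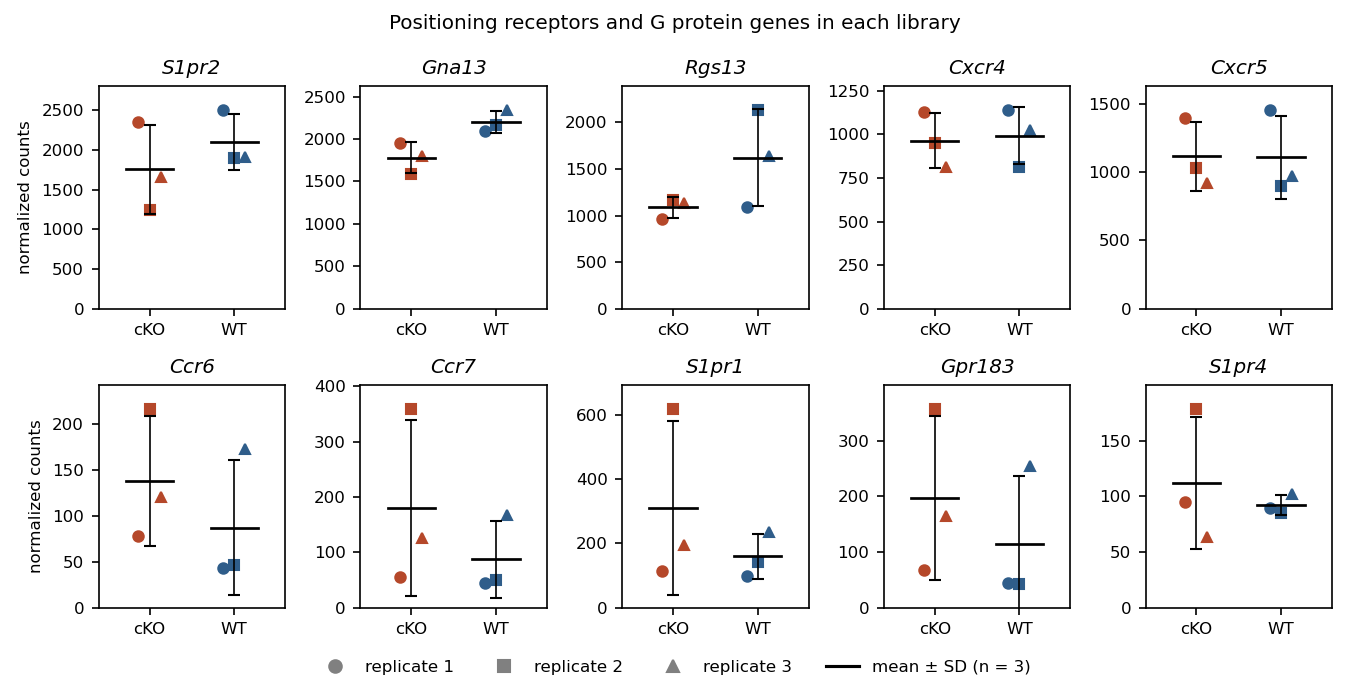
Normalized counts of the 10 genes in each library, cKO left of WT, with symbols for the replicate number and the mean ± SD of 3 libraries; each axis starts at 0 and the lower SD bar of Gpr183 in WT runs below it. The groups are apart for Gna13 and overlap for the other 9 genes, and Ccr6, Ccr7, S1pr1, Gpr183 and S1pr4 are highest in cKO replicate 2.

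S1pr2, Gna13 and Rgs13, the arm that confines cells to the follicle center and damps their response to chemokines, had lower cKO means. Gna13 measured 1950.0, 1587 and 1795 normalized counts in cKO and 2098, 2163 and 2344 in WT. Every cKO library was below every WT library, and the cKO library nearest to WT was replicate 1. Gna13 (ENSMUSG00000020611, chromosome 11, 109362831 to 109401369, plus strand) had a log2 difference of -0.31 ± 0.13 (SE, 95% confidence interval -0.61 to -0.015), an unadjusted p of 0.0414 and a limma adjusted p of 0.915. Comparing replicate 1 alone gave -0.11, and replicates 2 and 3 gave -0.42. The difference was negative in all 20 alternatives, from -0.42 to -0.23, and its unadjusted p was under 0.05 in 13 of them. Many of these alternatives refit the same 6 libraries. With single libraries left out, the limma unadjusted p was under 0.05 only without cKO replicate 1 (0.0273), and otherwise ran from 0.057 to 0.132. Among those fits the difference was nearest to 0 without cKO replicate 2 (-0.23).

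Rgs13 measured 959, 1167 and 1139.8 normalized counts in cKO and 1090.4, 2136 and 1639 in WT. The WT libraries spread 1.96-fold from lowest to highest, and WT replicate 1 lay within the range of the cKO libraries. Rgs13 (ENSMUSG00000051079, chromosome 1, 144138654 to 144177372, minus strand) had a log2 difference of -0.53 ± 0.23 (SE, 95% confidence interval -1.05 to -0.0021), an unadjusted p of 0.0493 and a limma adjusted p of 0.915. The difference was -0.18 within replicate 1 and -0.70 within replicates 2 and 3. It was negative in all 20 alternatives, and it was nearest to 0 (-0.30, limma unadjusted p = 0.196) without WT replicate 2, the library with the highest value. In the authors' deposited table the log2 fold change is -0.58 for Rgs13 and -0.31 for Gna13, with adjusted p-values of 0.903 and 0.9996.

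S1pr2, whose product couples to Gα13, measured 2355, 1245 and 1665 normalized counts in cKO and 2504, 1895 and 1904 in WT. Replicate 1 was highest in both groups, and cKO replicates 2 and 3 were below every WT library. Its log2 difference was -0.30 ± 0.23 (SE), with an unadjusted p of 0.234 and a limma adjusted p of 0.930. S1pr2 (ENSMUSG00000043895) lies on the minus strand of chromosome 9 at 20962361 to 20976781. Without cKO replicate 2 its difference was -0.073, and without cKO replicate 1 it was -0.53 (unadjusted p = 0.0246). Of the 6 germinal center markers, 5 also had negative differences (median -0.34, with 1 lower and 1 higher at an unadjusted p under 0.05), and their sum was lowest in cKO replicate 2, as S1pr2 and Gna13 were. The part of these markers in the values of S1pr2, Gna13 and Rgs13 was not tested.

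The pair of receptors that sort cells between the zones had similar means in both genotypes. Cxcr4 measured 1126, 951 and 811 normalized counts in cKO and 1140.5, 815 and 1023 in WT. The ranges of the groups nearly coincide, and the lowest value belongs to a cKO library and the highest to a WT library. Its log2 difference was -0.044, with a 95% confidence interval of -0.44 to 0.35 and a limma adjusted p of 0.987. Cxcr5 measured 1399, 1027 and 919 in cKO and 1456, 895 and 975 in WT. For Cxcr5, replicate 1 was the highest library of each group, and the difference was 0.018 (95% confidence interval -0.49 to 0.52, adjusted p = 0.994). Both intervals reach well to either side of 0, so these data do not show that the levels are equal. The sign of both genes depended on the scaling: quantile normalization gave 0.0135 for Cxcr4, and library totals alone gave -0.061 for Cxcr5.

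Within a library, the log2 ratio of Cxcr4 to Cxcr5 does not depend on how the library was scaled. It was -0.31, -0.11 and -0.18 in cKO and -0.35, -0.13 and 0.069 in WT. The means were -0.20 ± 0.10 in cKO and -0.14 ± 0.21 in WT, and they differed by less than the spread between libraries (exact two-sided permutation p = 0.7, where 0.1 is the smallest possible for 3 against 3). Dark zone markers with no member of the set among them (Hmmr, Ccnb1, Ccnb2, Aurka, Plk1, Top2a, Cdc20 and Cenpe) summed to 11150.3, 4401 and 6989.7 normalized counts in cKO and 14147, 10255 and 6758 in WT. All 8 of these mitotic genes had negative differences (1 at an unadjusted p under 0.05), and their sum was highest in replicate 1 of both groups and lowest in cKO replicate 2. Light zone markers (Cd83, Cd86, Cd40, Nfkbia, Nfkb2, Relb, Egr2 and Il4i1) summed to 6799, 7812 and 8473 in cKO and 6145, 6259.9 and 7692 in WT, with 7 of 8 differences positive. The part of either list in the values of Cxcr4 and Cxcr5 was not tested.

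Receptors for the T cell zone, the outer follicle and exit from tissue had higher cKO means and the widest spread. Ccr7, whose product follows the T zone chemokines CCL19 and CCL21, measured 55.3, 359 and 127 normalized counts in cKO and 44.5, 51.1 and 167 in WT. One library of each group was far above its lowest: cKO replicate 2 by 6.49-fold and WT replicate 3 by 3.76-fold. Gpr183, the receptor for oxysterols made at the follicle edge, measured 67.8, 357 and 165 in cKO and 44.5, 42.6 and 255 in WT. Again cKO replicate 2 and WT replicate 3 were the highest of their groups, and the groups overlapped. These values rest on 125, 188 and 81 Gpr183 reads in cKO and 88, 40 and 299 in WT.

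S1pr1, the receptor that lets lymphocytes leave tissue toward sphingosine-1-phosphate in blood and lymph, measured 115, 617 and 196 normalized counts in cKO and 100.1, 143 and 237 in WT. Ccr6, the receptor for CCL20, which marks memory B cells and their precursors, measured 78.6, 216 and 121 in cKO and 43.0, 46.8 and 173 in WT. Both genes had their highest value in cKO replicate 2, and in WT their highest value in replicate 3. S1pr4, another sphingosine-1-phosphate receptor of lymphocytes, measured 94.9, 178 and 63.3 in cKO and 89.5, 85.2 and 103 in WT. Its cKO libraries lay on both sides of the WT libraries, which differed by 1.20-fold at most.

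The log2 difference was 1.00 ± 0.76 (SE) for Gpr183, 0.90 ± 0.69 for Ccr7, 0.84 ± 0.55 for Ccr6, 0.68 ± 0.56 for S1pr1 and 0.15 ± 0.35 for S1pr4. The limma adjusted p-values of these 5 genes ran from 0.928 to 0.974, and no difference was larger than the spread between libraries. Without cKO replicate 2 the differences were 0.42 for Gpr183, 0.20 for Ccr7, 0.46 for Ccr6, 0.00050 for S1pr1 and -0.25 for S1pr4. Without WT replicate 3 they were 1.85 for Gpr183 (unadjusted p = 0.0140), 1.50 for Ccr7, 1.48 for Ccr6 (unadjusted p = 0.00674), 1.00 for S1pr1 and 0.23 for S1pr4. Without cKO replicate 1 the differences were 1.61 for Gpr183, 1.54 for Ccr7 (unadjusted p = 0.0378), 1.19 for Ccr6, 1.21 for S1pr1 (unadjusted p = 0.0424) and 0.21 for S1pr4. Without WT replicate 1 they were 0.60 for Gpr183, 0.55 for Ccr7, 0.49 for Ccr6, 0.39 for S1pr1 and 0.13 for S1pr4. Without WT replicate 2 they were 0.57 for Gpr183, 0.65 for Ccr7, 0.55 for Ccr6, 0.64 for S1pr1 and 0.096 for S1pr4. Without cKO replicate 3 they were 0.975 for Gpr183, 0.95 for Ccr7, 0.88 for Ccr6, 0.82 for S1pr1 and 0.49 for S1pr4. The size of the difference in these scarce receptors thus changed with the library left out. Comparing replicate 1 alone gave 0.60 for Gpr183, 0.31 for Ccr7, 0.86 for Ccr6, 0.20 for S1pr1 and 0.084 for S1pr4.

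**Figure D3:**
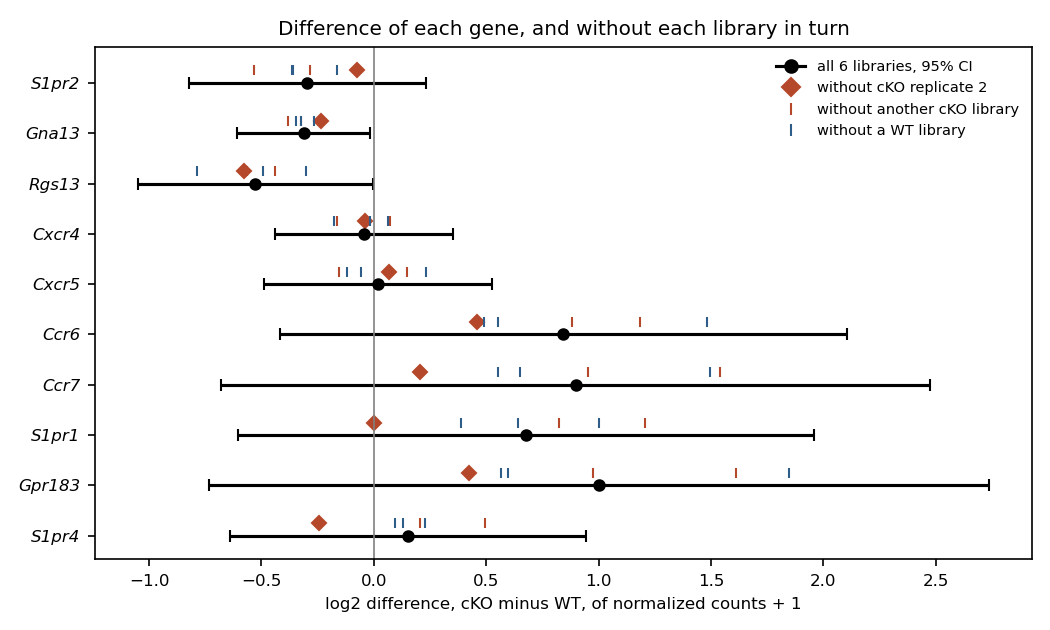
Log2 difference of each gene (horizontal axis, cKO minus WT), with black points and 95% confidence intervals from all 6 libraries and small marks for the fits that leave out 1 library. The intervals of Gna13 and Rgs13 end just below 0. Of the small marks, those without cKO replicate 2 (diamonds) lie nearest to 0 for Gna13, S1pr2, Ccr6, Ccr7, S1pr1 and Gpr183.

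Markers of naive or memory B cells, T cells and macrophages had their highest sums in cKO replicate 2, where the scarce receptors had their highest values. Ighd, the IgD heavy chain gene of naive B cells, measured 148, 1418 and 123 normalized counts in cKO and 94.5, 374 and 62.4 in WT. The 7 naive or memory B cell markers, all detected, summed to 4011, 9190.1 and 5601 in cKO and 2357, 4329.7 and 4952.5 in WT. All 7 differences were positive, 1 of them at an unadjusted p under 0.05. The highest library for the list, cKO replicate 2, is also the highest for Ccr7, Gpr183, S1pr1, Ccr6 and S1pr4. WT replicate 3 had the lowest Ighd of all 6 libraries and the highest sum of the list among the WT libraries.

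T cells also express Ccr7 and S1pr1. Cd3e, a T cell receptor component, measured 27.1, 140.5 and 6.13 in cKO and 20.7, 12.8 and 5.98 in WT. The 8 T cell markers, all in the table, summed to 744, 1566 and 509 normalized counts in cKO and 671, 689.9 and 599.7 in WT, with Cd3d, Cd3g and Cd8a at 0 in cKO replicate 3 and none at 0 in the other libraries. Lck alone measured 563, 691 and 470 in cKO and 484, 574 and 498 in WT. It made up most of the sum in every library except cKO replicate 2, so the sums understate how far the other T cell markers varied. The 8 macrophage markers summed to 351, 526 and 300.3 in cKO and 311, 249 and 115 in WT, with C1qb and C1qc at 0 in cKO replicate 3 and C1qc at 0 in WT replicate 3. Both lists were highest in cKO replicate 2 and lowest within each group in replicate 3. Plasma cell markers summed to 7131 to 16139 in cKO, the most again in replicate 2, and 8329 to 12951 in WT. Jchain alone measured 5765, 13478 and 5836 in cKO and 7012, 6937 and 10944 in WT, most of the sum in every library. Dendritic cell, granulocyte, erythroid and stromal markers summed to at most 647 in a library. Ighd, Cd3e and Lck were picked from their lists after their values were seen, and the part of these cells in the receptor values was not tested.

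**Figure D4:**
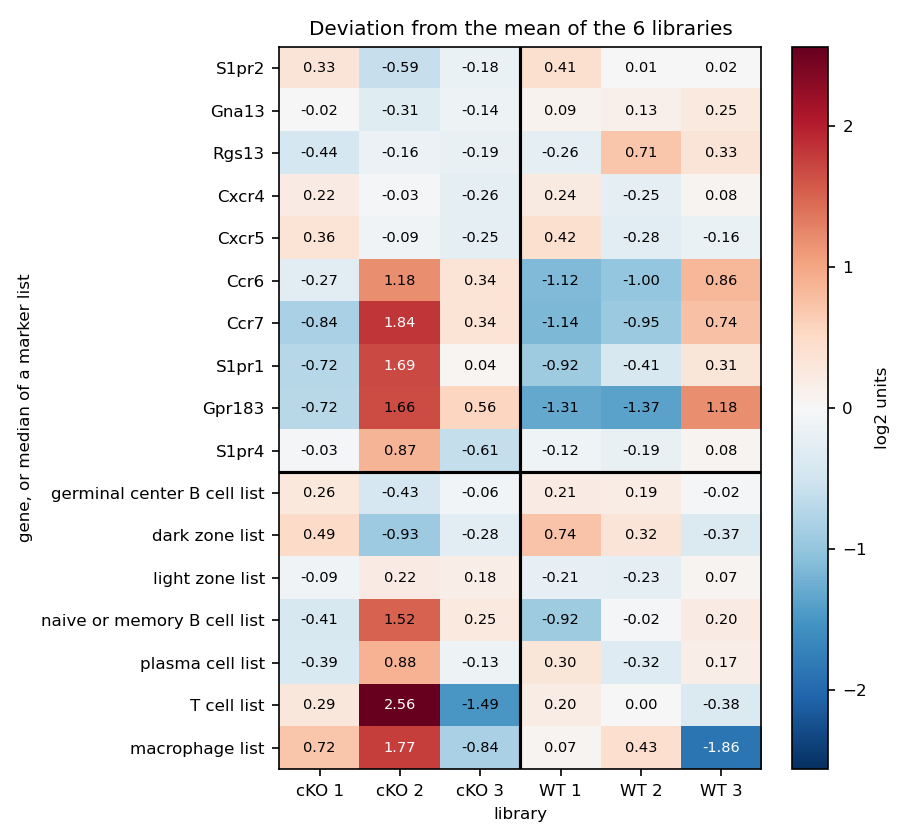
Log2 deviation of each library (columns) from the mean of the 6 libraries, for the 10 genes above the line and for the median of 7 marker lists below it; red is higher and blue lower. In cKO replicate 2, Ccr7 is at 1.84, Gpr183 at 1.66, the naive or memory B cell list at 1.52, the T cell list at 2.56 and the dark zone list at -0.93.

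Of the other ratios taken within libraries, none differed between the genotypes beyond the spread between libraries. The ratio of S1pr2 to S1pr1, the receptors for retention and exit, was 20.3, 2.02 and 8.45 in cKO and 24.8, 13.2 and 8.02 in WT. S1pr2 exceeded S1pr1 in every library, least so in cKO replicate 2 and most in WT replicate 1, and the groups overlapped. The mean log2 ratio differed by -0.97 (exact two-sided permutation p = 0.5). Gpr183 over Cxcr5 differed by 0.99 (exact p = 0.4), Ccr7 over Cxcr5 by 0.88 (exact p = 0.5) and Gna13 over Gnai2, an inhibitory Gα gene, by -0.16 (exact p = 0.5). With Benjamini-Hochberg adjustment over the 5 ratios, the exact permutation p-values were 0.625 for these 4 and 0.7 for Cxcr4 over Cxcr5.

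Genes with the most similar course over the 6 libraries were found by the root mean square difference of centred log2 values, among 6768 genes with a mean of at least 100. The nearest to Gna13 were Zfp664 (0.033 log2 units) and Prdm4 (0.046), and the nearest to S1pr2 were Itpa (0.046) and Bcl7a (0.060). Those nearest to Cxcr4 were Kif1bp (0.048) and Tbc1d20 (0.055). The nearest to Gpr183 were Egr2 (0.31), a transcription factor gene induced by receptor signals, and Bcl2 (0.37), a survival gene. This measure grows with a gene's own spread between libraries, so the distances of Gpr183 cannot be set against those of the other 3 genes. Egr2 measured 126, 425 and 386 normalized counts in cKO and 81.4, 91.6 and 429.7 in WT. Like Gpr183, it was high in cKO replicates 2 and 3 and in WT replicate 3.

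Further genes of the same pathways were read from lists by role, and limma called 0 of the 99 tested (of 112 listed). The counts in these lists stand beside the shares over all genes. An unadjusted p under 0.05 was met by 5.15% of all genes (2.98% higher and 2.17% lower in cKO). The groups did not overlap in 11.6% (6.28% with every cKO library above and 5.28% below). Among 26 other positioning receptors, 23 were tested and 16 had positive differences (median 0.56, against -0.0019 for all genes), with 3 higher and 1 lower at an unadjusted p under 0.05. Ackr4, a scavenger receptor for CCR7 ligands, measured 226, 75.9 and 98.0 normalized counts in cKO and 267, 271 and 199.9 in WT, and the groups overlapped. Ackr2, a scavenger of inflammatory chemokines, measured 146, 167 and 133 in cKO and 81.4, 71.3 and 122 in WT, higher in every cKO library. Ccr2, a receptor of monocytes and some lymphocytes, was scarce, with 14.6, 13.3 and 22.5 in cKO and 6.57, 1.06 and 4.27 in WT.

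The partners and effectors of Gα13 were mixed. Of 10 effector genes tested 7 had negative differences (median -0.27), with 2 lower and 1 higher at an unadjusted p under 0.05. Arhgef12, an exchange factor that Gα13 activates, measured 295, 218 and 206 normalized counts in cKO and 379.7, 342 and 359 in WT, and the kinase gene Rock2 590.0, 691 and 641 in cKO and 764, 899.6 and 859 in WT. Both had every cKO library below every WT library, with log2 differences of -0.60 and -0.39. Arhgap45, a GTPase-activating protein gene listed under its older symbol Hmha1, measured 3012, 3984 and 4255 in cKO and 2608, 2242 and 2499.7 in WT, a difference of 0.60. The limma adjusted p was 0.915 for each of Arhgef12, Rock2 and Arhgap45. Arhgef1, another listed exchange factor gene, picked after its values were seen, went the other way from Arhgef12. It measured 386, 411 and 460 normalized counts per kilobase in cKO and 359, 343 and 331 in WT, higher in every cKO library.

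The list of other G protein subunits also holds Ric8a, which is not a subunit gene. Of its 17 tested genes 13 had negative differences (median -0.16), and 1 passed an unadjusted p of 0.05. That gene was Gna11, a Gαq-class subunit, at 126, 127 and 176 in cKO and 104, 74.5 and 101 in WT, higher in every cKO library. Gnb4 (log2 difference -0.58) and Gna12 (-0.34), the next by p, overlapped between the groups. Among 11 other RGS genes, 5 positive and 6 negative (median -0.011), 1 had an unadjusted p under 0.05. It was Rgs14, at 307, 336 and 347 in cKO and 234, 230.0 and 249 in WT, a log2 difference of 0.47 with a sign opposite to that of Rgs13. Next by p were Rgs19 (-0.16, every cKO library below every WT library) and Rgs3 (0.35, overlapping). Rgs1, which also dampens chemokine signals in B cells and was picked after its values were seen, measured 245, 1306 and 1928 in cKO and 300.3, 1069 and 2407 in WT. Replicate 1 was the lowest library of both groups for Rgs1, and the groups overlapped.

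Of 8 receptor kinase, arrestin and CD69 genes, 6 had positive differences (median 0.15) and 1 passed an unadjusted p of 0.05. It was the scarce kinase gene Grk3, at 7.05, 11.4 and 16.3 normalized counts in cKO and 5.06, 2.13 and 5.13 in WT. Grk2 (0.21) and Grk5 (-0.22) followed by p, and neither passed 0.05. CD69 pulls S1PR1 from the cell surface, and Cd69, picked after its values were seen, measured 169, 1116 and 813 in cKO and 162, 424 and 933 in WT. It was thus lowest in replicate 1 of both groups. Of 14 Rac and PI3K effectors, 11 had negative differences (median -0.093) and 1 an unadjusted p under 0.05. That was Pik3cg, the catalytic subunit of the PI3 kinase that G protein βγ subunits switch on, at 446, 399 and 249 in cKO and 687, 650.5 and 568 in WT (log2 difference -0.84, limma adjusted p = 0.915). Gsk3b (-0.30) and Rac1 (-0.21) also had every cKO library below every WT library.

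Among 8 genes known to regulate these receptors, 4 had positive and 4 negative differences (median -0.054), with 1 higher and 2 lower at an unadjusted p under 0.05. Bach2, a transcription factor gene of B cells, measured 1619, 1355 and 1187 normalized counts in cKO and 2317, 2087 and 2255 in WT. Its groups were apart, with a log2 difference of -0.69 ± 0.15 (SE) and a limma adjusted p of 0.813. Foxo1, a dark zone factor that supports Cxcr4, measured 1027, 1148 and 1085 normalized counts in cKO and 1192, 1338 and 1521 in WT, lower in every cKO library (log2 difference -0.31, limma adjusted p = 0.915). Mef2b, the 1 higher gene, rests on few reads, at 2.71, 5.69 and 2.04 in cKO and 1.52, 0 and 0 in WT. Klf2, which activates S1pr1, measured 163, 626 and 355 in cKO and 82.9, 129.9 and 274 in WT, and the groups overlapped. Klf2 was chosen after its values were seen, and, like S1pr1, it was highest in cKO replicate 2. Of 16 ligand and ligand enzyme genes 8 were tested, 6 with positive differences (median 0.50). Cxcl12 and Cxcl13, the ligands of CXCR4 and CXCR5, did not reach the filter, with at most 0.506 and 3.80 normalized counts in a library. Ccl19, Ccl20, Ccl21a, Ch25h, Cyp7b1 and Sphk1 of this list, and Gnai1 and Rgs5 of the lists above, are not analysed here. In that list 1 gene, Spns2, a sphingosine-1-phosphate exporter, had an unadjusted p under 0.05, at 18.4, 19.0 and 10.2 in cKO and 4.55, 11.7 and 2.56 in WT. Hsd3b7 (1.39) and Plpp3 (1.17) followed by p, at 13.3 normalized counts or fewer in every library.

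**Figure D5:**
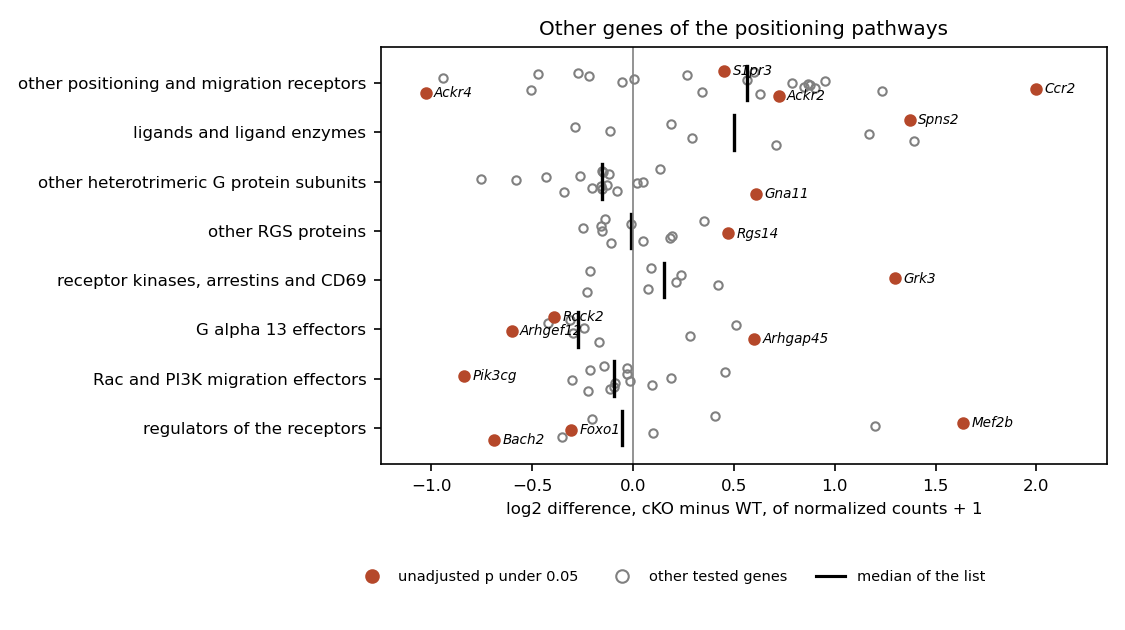
Log2 difference (horizontal axis, cKO minus WT) of each tested gene in 8 lists of further pathway genes, with filled points at an unadjusted p under 0.05, open points otherwise, and a bar at the median of each list. The effectors of Gα13 have a median of -0.27 and the other positioning receptors of 0.56, and no gene in any list passed the adjusted test.

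The counting could mix 3 of the 10 genes with neighbours, since the sources used here do not give its strand setting. Gpr183 lies within the span of Ubac2 on the opposite strand. Ubac2 measured 406, 353 and 249 normalized counts in cKO and 471, 424 and 383 in WT, and its part in the Gpr183 values was not tested. The start of Gna13 overlaps the antisense gene Gm11696, at 41.8 to 49.3 in cKO and 38.3 to 64.7 in WT, and the end of Cxcr5 overlaps Bcl9l, at 261 to 412 and 268 to 284.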

How the data were processed

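RNA sequencing was compared between 3 cKO and 3 WT libraries, grouped by their titles. The authors deposited, for each gene and library, a normalized count signal, scaled by 1 factor per library. Their log2 fold change, Wald score, p-value and adjusted p-value for the genotypes are in the same deposited table, per the file headers. The submitters' processing notes name mm10 and DESeq2, HTSeq, SAMtools, HISAT, HISAT2 and TopHat2, with no versions and no order. The sources used here do not give the strand setting or the annotation.

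Reads were recovered from the deposited signal, of which 100% were whole multiples of the value of 1 read (within 0.01 read). Depth was 3019152 to 10339054 reads on genes. The main test was limma 3.58.1 (R 4.3.3, trended variance, log2 of the signal plus 1), with genotype as the single factor and a minimum mean signal of 1, adjusted by Benjamini-Hochberg over 14678 genes. Adding 1 understates the differences of scarce genes. The recovered reads were also tested with DESeq2 1.42.0, with edgeR 4.0.16 and by limma-voom, and scaling, filter, pseudocount, replicate block and library omissions were varied. The limma and edgeR fits were first tested on simulated data. Positions and exon lengths came from GENCODE M21 (GRCm38), which holds 19589 of the 19680 gene identifiers, and 4 list genes were matched by older symbols.

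The 10 genes and all gene lists were chosen with earlier results of these data known. From each pathway list the 3 genes with the smallest p are named, and any other pathway gene, apart from Gnai2 as part of a ratio, is said to be chosen after its values were seen. Some items of these lists are not reported here.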

Additional observations from a re-analysis of the deposited data

How the results depend on the processing

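None of the 10 genes was called under any of the 20 alternatives. The differences of Gna13, Rgs13 and S1pr2 stayed negative, and those of Ccr6, Ccr7, S1pr1 and Gpr183 positive, under all 20. Over all genes, limma called 3 genes when replicate 1 had its own term and 16 when cKO replicate 2 was dropped as well, and DESeq2 called 20, against 0. At an unadjusted p under 0.05 there were 1345 and 1586 genes in those limma fits, and 345 to 1363 with single libraries left out, against 756. Of the 10 genes, 0 to 4 had an unadjusted p under 0.05 with single libraries left out (0 each without WT replicate 2, without cKO replicate 2 and without cKO replicate 3, and 4 without cKO replicate 1). There were 0 after quantile normalization, and 1 each with a mean of at least 10, by limma-voom, and with the term and without cKO replicate 2.

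Both groups use replicate numbers 1 to 3, and the labels call the mice paired without saying that a number marks a pair. Deviations from the group means correlated at 0.49, 0.055 and 0.20 for replicates 1, 2 and 3. Replicates 1 and 3 of cKO correlated best with the WT library of the same number, and cKO replicate 2 with WT replicate 3 (0.17). These values do not settle whether the numbers mark pairs. The main test used genotype alone, and the block is given as an alternative. With the replicate number as a block, limma called 1 gene, and 1333 had an unadjusted p under 0.05, against 756 without it. Of the 10 genes 3 did, at limma unadjusted p-values of 0.0248 for Gna13, 0.00584 for Rgs13 and 0.0490 for S1pr2. Their limma adjusted p-values in that fit were 0.504, 0.396 and 0.547.

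Cxcr4 changed sign after quantile normalization (0.0135) and ranged from -0.18 to 0.0735 with single libraries left out. Cxcr5 changed sign with library totals (-0.061), after scaling without immunoglobulin and mitochondrial genes (-0.0022) and with the term and without cKO replicate 2 (-0.038), and ranged from -0.16 to 0.23 with single libraries left out. S1pr4 changed sign with the term and without cKO replicate 2 (-0.28) and ranged from -0.25 to 0.49. The log2 ratio of Cxcr4 to Cxcr5 differed by -0.17 to 0.042 with single libraries left out. The causes were not tested. Depth limits the scarce receptors most: cKO replicate 3 holds 31 reads of S1pr4 and 59 of Ccr6, and intervals cover counting error and spread between 3 libraries only.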
